A study of Homo sapiens with 6 samples.

Results

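GYPB, GYPC, SPTB, SLC4A1, ANK1, EPB41, EPB42 and TFRC, 8 genes of the red cell membrane, were followed in K562 cells after knockdown of the splicing factor ZRSR2. They were read through the 175 introns, of 241593 listed in the deposited tables, whose interval lies inside one of the 8 genes on its strand. In all, the listed introns fell in 27149 genes. ANK1 held 46 of them, EPB41 34, SPTB 29, SLC4A1 and TFRC 19 each, EPB42 13, GYPB 9 and GYPC 6. K562 is an established human leukaemia line with erythroid features. All 6 libraries came from K562 cells transduced with an shRNA: 2 with a control shRNA (Con_sh), 2 with a first shRNA against ZRSR2 (sh1) and 2 with a second one (sh2). The labels number the experiments 1 and 2, used here as replicate numbers, and do not say that the libraries came from separate cultures, so p-values measure the spread between these samples, which may be technical. They give no time after transduction, and the line stands for no normal red cell precursor.

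The red cell membrane is a lipid bilayer tied to a spectrin and actin mesh beneath it. Ankyrin (ANK1) links β-spectrin (SPTB) to band 3, the anion exchanger encoded by SLC4A1, with protein 4.2 (EPB42) at the same complex, while protein 4.1R (EPB41) links the ends of spectrin to actin and to glycophorin C (GYPC). GYPB encodes glycophorin B, a sialic acid-rich surface protein. TFRC encodes transferrin receptor 1, through which erythroid precursors take up iron and which is shed as they mature. ZRSR2 acts in recognising the 3′ splice site of U12-type introns, the small class removed by the minor spliceosome.

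On GRCh38, GYPB lies on chromosome 4 from 143995188 to 144019380 (minus strand), GYPC on chromosome 2 from 126656158 to 126696667 (plus) and SPTB on chromosome 14 from 64746283 to 64879907 (minus). SLC4A1 lies on chromosome 17 from 44248390 to 44268135 (minus) and EPB41 on chromosome 1 from 28887100 to 29120041 (plus). EPB42 lies on chromosome 15 from 43197227 to 43225737 (minus) and TFRC on chromosome 3 from 196049284 to 196082090 (minus). RefSeq (GRCh38.p14) gave 9 promoter entries for 6 of the 8 genes.

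The promoters below are shown because reads told apart the start exons of EPB41, and because GYPB, SPTB and EPB42 gave the values described further on. Each is the 250 bases before a RefSeq start, 5′ to 3′ on the gene's strand (GRCh38.p14), and capitals mark matches to CANNTG (the E box) or AGATAA (a motif bound by GATA factors), searched on both strands.
EPB41 upstream start, chr1:28886850-28887099, plus strand: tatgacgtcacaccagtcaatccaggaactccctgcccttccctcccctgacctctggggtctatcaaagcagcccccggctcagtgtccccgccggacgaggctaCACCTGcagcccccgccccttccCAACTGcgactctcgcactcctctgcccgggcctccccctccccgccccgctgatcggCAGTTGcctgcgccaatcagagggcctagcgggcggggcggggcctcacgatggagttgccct
EPB41 downstream start, chr1:28914319-28914568, plus strand: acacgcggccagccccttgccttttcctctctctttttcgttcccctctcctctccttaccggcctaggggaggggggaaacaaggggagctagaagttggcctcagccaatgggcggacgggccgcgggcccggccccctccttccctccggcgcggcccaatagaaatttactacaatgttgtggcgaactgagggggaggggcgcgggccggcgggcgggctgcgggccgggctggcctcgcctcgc
GYPB, chr4:144019381-144019630, minus strand: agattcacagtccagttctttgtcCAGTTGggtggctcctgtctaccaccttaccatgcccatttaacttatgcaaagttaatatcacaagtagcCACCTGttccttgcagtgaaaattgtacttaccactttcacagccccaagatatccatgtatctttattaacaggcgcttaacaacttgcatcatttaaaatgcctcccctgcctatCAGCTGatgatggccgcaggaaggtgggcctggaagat
SPTB, chr14:64823381-64823630, minus strand: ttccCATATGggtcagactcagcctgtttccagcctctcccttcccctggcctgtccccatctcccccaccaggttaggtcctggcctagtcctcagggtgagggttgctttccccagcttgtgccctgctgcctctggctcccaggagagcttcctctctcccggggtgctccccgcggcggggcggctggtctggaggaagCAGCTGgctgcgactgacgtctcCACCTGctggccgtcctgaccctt
EPB42, chr15:43221019-43221268, minus strand: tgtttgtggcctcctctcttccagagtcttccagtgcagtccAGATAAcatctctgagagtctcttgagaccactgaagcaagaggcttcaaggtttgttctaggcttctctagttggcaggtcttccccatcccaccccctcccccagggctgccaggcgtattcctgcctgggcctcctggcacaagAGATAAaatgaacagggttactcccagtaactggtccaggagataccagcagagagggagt

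The EPB42 promoter held 2 matches to AGATAA, the upstream EPB41 promoter and the GYPB and SPTB promoters printed here 3 matches each to CANNTG, and the downstream EPB41 promoter none of the motifs searched. AGATAA was present in 3 of the 9 member promoters and in 9.17% of 35116 RefSeq promoters of the same length, and CANNTG in 7 of 9 and 61.8%. TGATAA (6.66% of all promoters) and CCACACCC, the core of KLF1 sites (2.97%), were in 0 of the 9. A match describes these letters and not a bound site. The GYPB entry printed here ends inside an AGATAA that a second listed start, slightly downstream, takes in whole. A second SPTB entry, chr14:64879908-64880157, is not printed and held 1 match to AGATAA and 2 to CANNTG.

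Level was read from spliced reads, which are reads with a gap across an intron, summed over the introns of a gene that do not overlap one another. These sums came to between 76106619 and 92907910 reads per library over all genes, and levels below are CPM, reads scaled to equal library sums with TMM (factors 0.973 to 1.02). The 8 genes took between 171496 and 281987 reads per library, 0.217% and 0.240% of the sum in the controls, 0.233% and 0.240% under sh1, and 0.355% and 0.254% under sh2. ZRSR2 stood at 27.9 and 23.5 CPM in the controls, 10.6 and 10.7 under sh1 and 10.3 and 12.8 under sh2, so all 4 knockdown libraries lay below both controls (log2 fold change -1.21, SE 0.174; edgeR adjusted p = 0.57, DESeq2 adjusted p = 1.61e-06). In replicate 1 of sh2, 58 of 17575 tested genes (0.33%) were over 4 times the highest other library. The like count for the other libraries is not given here. For the values that replicate 1 of sh2 moves most, those without it are given too. In those fits sh2 is a single library, which is assumed to vary like the other groups. Erythroid markers summed to 4404 and 7227 CPM in the controls, 14414 and 6157 under sh1 and 26960 and 10263 under sh2, and megakaryocytic markers to 65.4–86.1, 135–165 and 133–205 CPM. Myeloid markers summed to 128–176 CPM in the controls, 73.1–124 under sh1 and 56.4–90.7 under sh2, lymphoid ones to 42.6–87.2, 33.8–35.4 and 30.8–37.2, and stromal or epithelial ones to 758–1506, 981–1030 and 502–761. None of the markers found in the tables was at 0 in all libraries, and their part in the results below was not tested.

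Since a sum grows with the number of introns, genes were ordered by CPM per intron. In the control, GYPC (67.9 ± 0.262 CPM per intron; SD, n = 2) and TFRC (67.8 ± 2.87) came first and did not differ beyond their spread, followed by GYPB (33.6 ± 6.4), EPB41 (15.2 ± 1.5), ANK1 (5.16 ± 1.26) and SPTB (1.72 ± 0.306). SLC4A1 at 0.232 ± 0.0446 and EPB42 at 0.0569 ± 0.032 CPM per intron came last, so the anion exchanger and its partner protein 4.2 were spliced at trace level in these cells. With sh1 the mean CPM per intron read GYPB 58 ± 16.3, TFRC 57.6 ± 11.1 and GYPC 55.6 ± 2.43, which overlapped within their spread, then EPB41 15 ± 0.595, ANK1 7.82 ± 0.416, SPTB 2.96 ± 0.549, SLC4A1 0.237 ± 0.0489 and EPB42 0.0558 ± 0.0212. With sh2 it read GYPC 111 ± 41.3, GYPB 83.5 ± 57.2, TFRC 67.2 ± 2.7, EPB41 18 ± 1.02, ANK1 8.23 ± 1.24, SPTB 4.48 ± 1.4, SLC4A1 2.59 ± 3.26 and EPB42 1.02 ± 1.33, where the 2 GYPB libraries overlapped both neighbours and GYPC lay above TFRC in both.

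**Figure D1:**
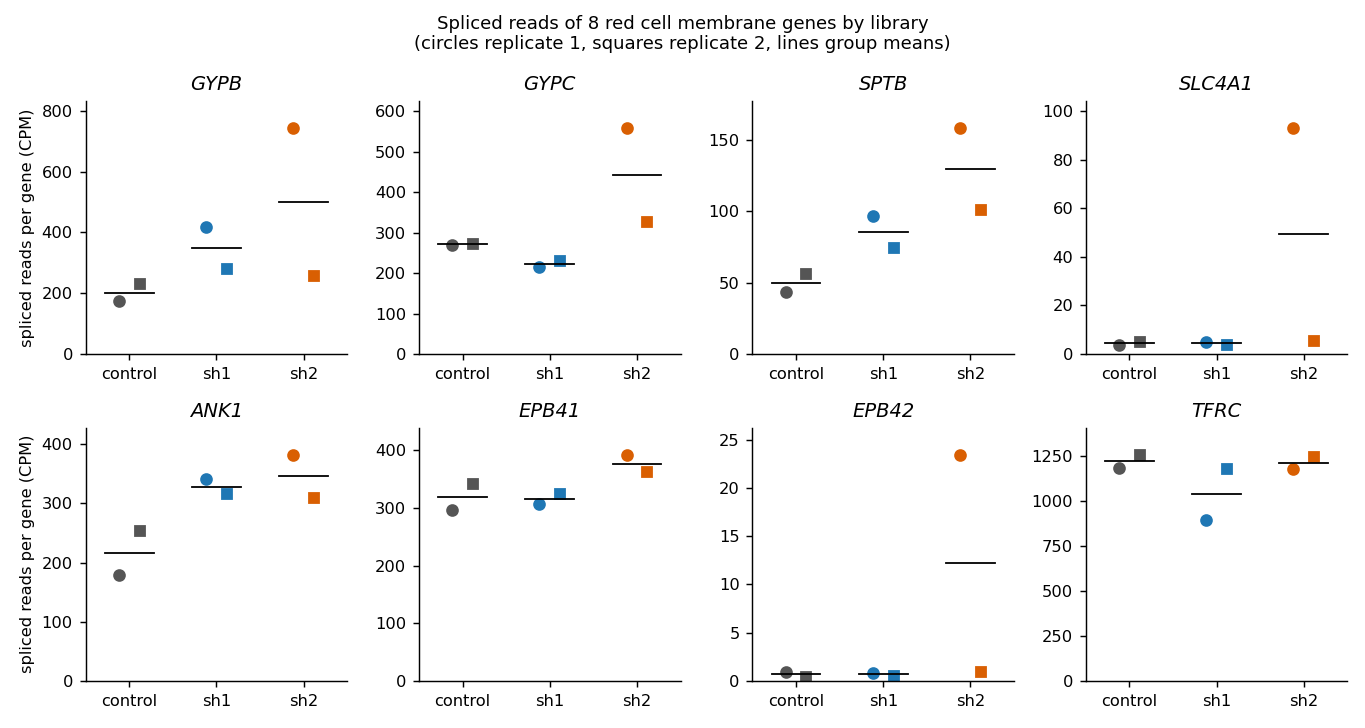
Spliced reads per gene in CPM (vertical axes, each from 0) for the 8 genes in the 6 libraries; circles are replicate 1, squares replicate 2 and lines group means. GYPB, SPTB and ANK1 lie above both controls in all 4 knockdown libraries, and SLC4A1 and EPB42 are high in replicate 1 of sh2, at 93.1 and 23.4 CPM.

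Of the glycophorins, GYPB was higher in each knockdown library and GYPC was not. GYPB stood at 175 and 229 CPM in the controls, 417 and 279 under sh1 and 744 and 258 under sh2. All 4 knockdown libraries lay above both controls, with replicate 1 the higher in each knockdown group. The log2 fold change over both shRNAs was 1.05 (SE 0.425; edgeR adjusted p = 0.587, unadjusted p = 0.0444; DESeq2 adjusted p = 0.182), or 2.07-fold, and 0.57 without replicate 1 of sh2, when the value under sh2 was 0.36. In bulk RNA such as this, more cells of a type and more RNA per cell cannot be told apart.

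GYPB belongs to a family of near-identical genes, so reads can be placed in the wrong copy, and its level and exon values are uncertain to that extent. How far such reads enter the values of GYPB is not reported here.

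GYPC stood at 271 and 272 CPM in the controls, 215 and 229 under sh1 and 559 and 326 under sh2. Both sh1 libraries lay below the controls and both sh2 libraries above them. Against the controls GYPC gave a log2 value of -0.29 (SE 0.25) under sh1, and of 0.70 (SE 0.251) under sh2, with edgeR adjusted p of 0.831 and 0.574. The direct difference, sh1 minus sh2, was -0.99 (SE 0.252; edgeR adjusted p = 0.911, unadjusted p = 0.00604; DESeq2 adjusted p = 0.0771), so neither tool called it. Without replicate 1 of sh2, the value under sh2 was 0.26 and the direct difference -0.55 (SE 0.17; edgeR adjusted p = 1, unadjusted p = 0.0146). Over both shRNAs the value was 0.21 (SE 0.218), and it turned to -0.01 without replicate 1 of sh2.

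Of the skeleton, the genes for β-spectrin and its ankyrin anchor were higher in every knockdown library and that for protein 4.1R was not. SPTB stood at 43.6 and 56.2 CPM in the controls, 97.1 and 74.6 under sh1 and 159 and 101 under sh2. All 4 knockdown libraries lay above both controls and sh2 above sh1. SPTB reached 2.12-fold over both shRNAs (log2 1.08, SE 0.24), 0.78 on the log2 scale (SE 0.265) under sh1 and 1.38 (SE 0.269) under sh2. DESeq2 called the increase over both shRNAs (adjusted p = 0.00781) and under sh2 (0.00225) but not under sh1 (0.262), and edgeR called none of them (adjusted p of 0.57, 0.574 and 0.718). The difference between the shRNAs was -0.60 (SE 0.264; edgeR adjusted p = 0.911). Without replicate 1 of sh2 the log2 fold change over both was 0.90, which DESeq2 still called (adjusted p = 0.0262), and that under sh2 was 1.02 by edgeR and not called by either tool (adjusted p = 1 in edgeR and 0.217 in DESeq2). Without the replicate 1 libraries of both shRNAs the edgeR value over both was 0.80.

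ANK1, on the minus strand of chromosome 8 from 41653225 to 41896741 (GRCh38), stood at 179 and 254 CPM in the controls, 341 and 316 under sh1 and 382 and 309 under sh2. The 4 knockdown libraries again lay above both controls, and the shRNAs overlapped. The log2 fold change was 0.64 (SE 0.185), or 1.56-fold, over both shRNAs (edgeR adjusted p = 0.57, unadjusted p = 0.0116; DESeq2 adjusted p = 0.112), 0.60 (SE 0.209) under sh1 and 0.67 (SE 0.209) under sh2. Without replicate 1 of sh2 it was 0.56 over both and 0.51 under sh2.

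EPB41 stood at 297 and 341 CPM in the controls, 306 and 324 under sh1 and 393 and 362 under sh2. The sh1 libraries lay between the controls and the sh2 libraries above them. EPB41 gave a log2 value of -0.02 (SE 0.146) under sh1, and of 0.24 (SE 0.146) under sh2, with edgeR adjusted p of 0.99 and 0.684, and 0.11 (SE 0.127) over both. Without replicate 1 of sh2 these were 0.19 under sh2 and 0.09 over both.

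SLC4A1 and EPB42, which encode proteins of 1 complex, were both high in a single library. SLC4A1 stood at 3.82 and 5.02 CPM in the controls, 5.16 and 3.85 under sh1, and 93.1 and 5.5 under sh2. EPB42 stood at 0.954 and 0.411 CPM in the controls, 0.85 and 0.491 under sh1, and 23.4 and 0.955 under sh2. Outside replicate 1 of sh2 the groups lay close together for both genes. The log2 fold change under sh2 was 3.48 (SE 1.11) for SLC4A1 and 4.16 (SE 1.34) for EPB42, each with an edgeR adjusted p of 0.574, and without replicate 1 of sh2 it was 0.32 and 0.49. With replicate 1 as the only sh2 library, the value of SLC4A1 was 4.39 (edgeR adjusted p = 0.0166), a call that concerns that library, since its spread is assumed to be that of the other groups. With sh1 it was 0.03 (SE 1.03) and -0.03 (SE 1.24).

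In replicate 1 of sh2 the reads were high along the whole of both genes. The 19 introns of SLC4A1 had a median of 399 spliced reads there, with 272 in the lowest, against medians of 16 and 24 in the controls, 21 and 18 under sh1 and 24 in the other sh2 library. The nearest listed intron upstream of SLC4A1 on its strand, at chromosome 17 from 44276621 to 44277374, held 8 and 19 reads in the controls, 6 and 5 under sh1 and 15 and 11 under sh2. The median EPB42 intron held 5.5 and 3 reads in the controls, 5.5 and 3.5 under sh1, and 161 and 5 under sh2, while the 3 nearest introns upstream held 1 to 10 reads in every library. The introns upstream were thus not high in that library. The first EPB42 intron behind the promoter printed above held 6 and 4 reads in the controls, 4 and 1 under sh1 and 201 and 10 under sh2. The erythroid marker sum was also the highest there, and its part in these values was not tested.

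**Figure D2:**
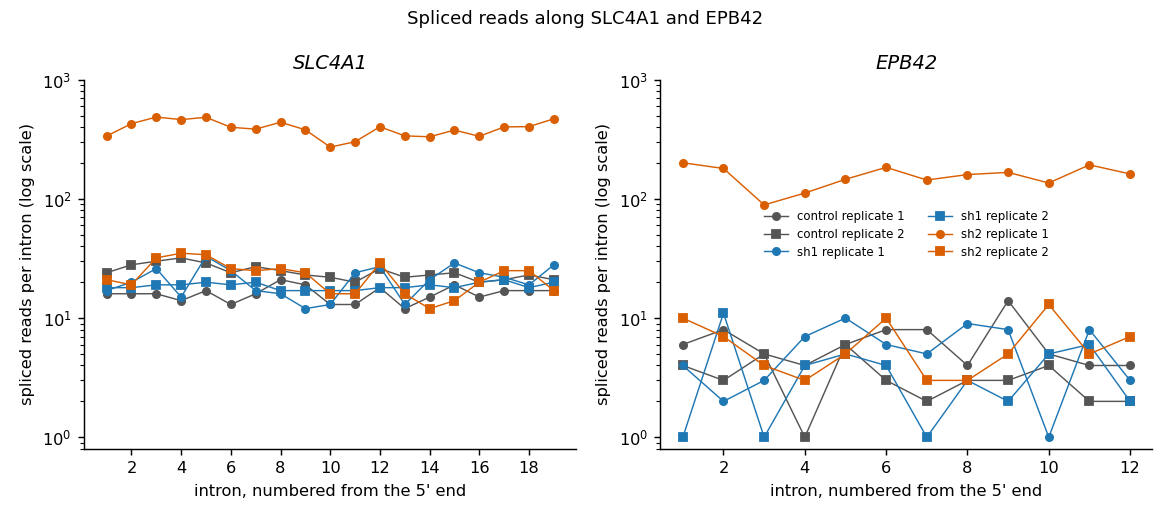
Spliced reads per intron (log axis) along SLC4A1 and EPB42, introns numbered from the 5′ end and 1 line per library. Replicate 1 of sh2 lies above the other libraries at each intron drawn, with a median of 399 reads in SLC4A1 and 161 in EPB42.

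TFRC stood at 1184 and 1257 CPM in the controls, 895 and 1179 under sh1 and 1175 and 1244 under sh2. Replicate 1 of sh1 was the lowest, and the sh2 libraries overlapped the controls. The log2 fold change over both shRNAs was -0.12 (SE 0.151; edgeR adjusted p = 0.838), -0.24 (SE 0.175) under sh1 and -0.01 (SE 0.175) under sh2, the last at 0.03 without replicate 1 of sh2. Of 18 genes listed for iron uptake and storage around the receptor 17 could be tested, and 13 had positive log2 values and 4 negative ones over both shRNAs. Their median log2 fold change was 0.15, 0 were called by edgeR or DESeq2 (0.0% and 1.05% of all genes), and 0 had an unadjusted edgeR p under 0.05 (8.25% of all). The lowest unadjusted p belonged to SNX3, which sorts the receptor back to the surface (log2 fold change 0.29; edgeR adjusted p = 0.602, unadjusted p = 0.0598). Next came the iron transporter SLC11A2 (0.51 on the log2 scale; edgeR adjusted p = 0.605, unadjusted p = 0.0679) and ACO1, an iron-sensing RNA-binding protein (0.31; adjusted p = 0.651, unadjusted p = 0.118).

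Across the 8 genes, 7 had positive log2 values over both shRNAs and 1 a negative one, with a median of 0.84, against a median of -0.01 over all 17575 tested genes, 48.8% of which were positive. The edgeR test called 0 of the 8 and 0 of 17575 (0.0%), with 3 of the 8 and 1450 of all (8.25%) at an unadjusted p under 0.05. DESeq2 called 1 of the 8, SPTB, and 185 of all (1.05%). With sh1 alone edgeR and DESeq2 called 0 of the 8 (background 0.0% and 0.723%; 2 of 8 at an unadjusted edgeR p under 0.05, against 6.69% of all), the median was 0.01 and 4 values were positive. With sh2 alone edgeR again called 0 (0.0%; 6 of 8 unadjusted, against 8.33% of all) and DESeq2 1, SPTB (1.04%). Between the shRNAs edgeR and DESeq2 called 0 (0.0% and 0.393%; 3 of 8 at an unadjusted edgeR p under 0.05, against 5.35%), and all 8 values of sh1 minus sh2 were negative, a comparison in which replicate 1 of sh2 enters each time. Without that library, 1 of 8 was at an unadjusted edgeR p under 0.05 under sh2, SPTB (3.19% of all), and 1 between the shRNAs, GYPC (2.44%). Then 6 of the 8 values of sh1 minus sh2 were negative, with GYPB at 0.43 and ANK1 at 0.09, and over both shRNAs GYPB, SPTB and ANK1, 3 of 8, were at an unadjusted edgeR p under 0.05 (6.28%). DESeq2 then called 1 of 8, SPTB, over both shRNAs (0.366%), and 0 under sh2 (0.113%) and between the shRNAs (0.135%). GYPB, SPTB and ANK1, 3 of the 8, lay above both controls in all 4 knockdown libraries, as did 10.0% of all genes, and 0 lay below both controls in all 4 (9.55% of all). The erythroid marker list (14 of 14 tested) had a median of 1.10 over both shRNAs, 0.43 under sh1 and 1.37 under sh2. The megakaryocytic list (7 of 11 tested) had medians of 1.10, 1.01 and 0.81 in that order. The myeloid (6 of 8 tested), lymphoid (4 of 6) and stromal or epithelial (6 of 6) lists had medians of -0.80, -1.17 and -0.43 over both shRNAs.

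**Figure D3:**
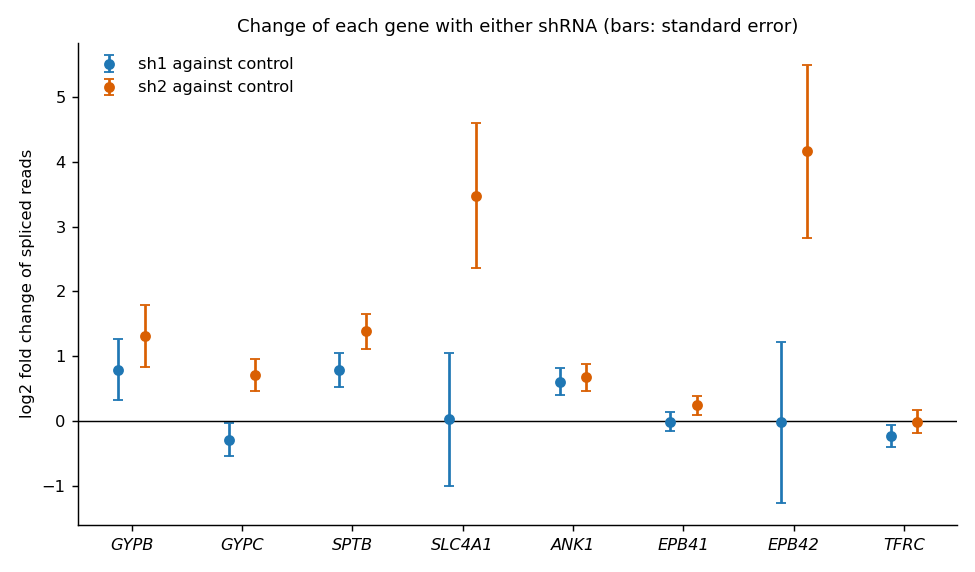
Log2 fold change of spliced reads under sh1 (blue) and sh2 (orange) against the control for each gene; bars are standard errors from the edgeR fit over 17575 genes. GYPC is at -0.29 and 0.70, ANK1 at 0.60 and 0.67, and the wide bars of SLC4A1 and EPB42 come with 3.48 and 4.16 for sh2.

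Among 42 other genes of the red cell membrane and skeleton, 40 could be tested, 33 had positive values and 7 negative ones, and the median log2 fold change was 0.47. edgeR called 0 of them (0.0% of all genes), with 14 of 40 at an unadjusted p under 0.05 (8.25% of all), and DESeq2 called 3 of 40 (1.05% of all), all higher. Of these, AQP3, a water and glycerol channel, stood at 58.9 and 66.4 CPM in the controls, 88.5 and 83.4 under sh1 and 92 and 102 under sh2 (log2 0.54, SE 0.133; DESeq2 adjusted p = 0.0413). All 4 knockdown libraries of AQP3 lay above both controls.

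Retention of the members' introns was low and was not called changed. Retention is the share of boundary reads, which run across an exon and intron border, in boundary reads plus 2 times the spliced reads. Pooled values covered the 151 introns that do not overlap one another. They were 0.802% and 0.842% in the controls, 0.960% and 0.784% under sh1 and 1.05% and 0.975% under sh2. The sh2 libraries thus lay above the controls and the sh1 libraries on both sides of them. Of 175 introns 172 had enough reads to be tested. In the control 108 of the 172 were retained under 1% and 11 over 5%.

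The edgeR test, the only tool run on introns, called 0 of 172 over both shRNAs, under sh1, under sh2 and between them, where it called 0.351%, 0.302%, 0.286% and 0.0343% of all 134078 introns. At an unadjusted p under 0.05 stood 12 of 172 (6.98%) over both shRNAs against 4.44% of all, 9 (5.23%) under sh1 against 4.09%, 15 (8.72%) under sh2 against 4.5%, and 17 (9.88%) between the shRNAs against 3.83%. The lowest adjusted p was 0.515, 0.307, 0.41 and 0.727 in that order. The median log2 change of the odds of a boundary read was 0.02 over both shRNAs, and 9 of 172 introns lay above both controls in all 4 knockdown libraries (background 7.28%). Of the 12 introns, 6 were in EPB41, 2 in SPTB and 1 each in GYPB, GYPC, SLC4A1 and ANK1, and 0 in EPB42 and TFRC. EPB41, with 33 tested introns, also held 3 of the 9 under sh1, 9 of the 15 under sh2 and 12 of the 17 between the shRNAs. Only 21 of its 34 introns do not overlap one another, so these are not all separate observations.

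The GYPB intron with the lowest p, at chromosome 4 from 144000476 to 144001184, was retained at 0.128% and 0.213% in the controls, 0.535% and 0.202% under sh1 and 0.596% and 0.346% under sh2. 1 sh1 library lay between the controls and the other 3 knockdown libraries above them (log2 1.23, SE 0.432; edgeR adjusted p = 0.515). The SPTB intron at chromosome 14 from 64799935 to 64800755 had 0 boundary reads in both controls, 5 and 6 under sh1 and 6 and 4 under sh2, against 127 and 171 spliced reads in the control (edgeR adjusted p = 0.735). The 2 groups did not overlap, but the counts are few, and SPTB was also read more deeply in the knockdown libraries. The SLC4A1 intron at chromosome 17 from 44260816 to 44261574 went the other way, on few reads (edgeR adjusted p = 0.534). It had 1 and 6 boundary reads in the controls, 0 and 0 under sh1 and 5 and 0 under sh2. Its spliced reads were 14 and 32 in the controls, 15 and 19 under sh1 and 463 and 35 under sh2. In EPB41 the intron from 29030488 to 29033092 had 3 and 6, 0 and 0, and 6 and 1 boundary reads, and in ANK1 the intron from 41694804 to 41695176 had 2 and 4, 1 and 2, and 0 and 0 (edgeR adjusted p of 0.714 and 0.747). The first listed intron of TFRC, 196077123 to 196081830, was retained at 0.143% and 0.301% in the controls, 0.613% and 0.348% under sh1 and 0.284% and 0.270% under sh2, and that of GYPC, 126656313 to 126685827, at 0.248% and 0.224%, 0.468% and 0.365%, and 0.546% and 0.249%. In TFRC both sh1 libraries lay above the controls and both sh2 libraries between them, while in GYPC all 4 knockdown libraries lay above both controls, replicate 2 of sh2 by the least. Neither passed the edgeR test over both shRNAs (adjusted p of 1 each) or under sh1 (0.871 for TFRC and 1 for GYPC). In EPB42 the intron with the lowest p, 43216454 to 43220725, had 1 boundary read in 1 control and 0 elsewhere.

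The highest retention in the control was in ANK1, between 41655754 and 41663658, at 34.7% and 28.2% in the controls, 32.2% and 25.9% under sh1 and 47.95% and 43.6% under sh2. Both sh2 libraries lay above the others there. That interval holds a cassette exon of 141 nt, and its spliced reads are only those that skip this exon. They were 80 and 116 in the controls, 197 and 150 under sh1 and 146 and 73 under sh2. Reads counted as including the exon were 464 and 785, 830 and 922, and 952 and 834. The ANK1 percentages thus also move with exon skipping, and the part of skipping in the sh2 values was not tested. The boundary reads were uneven: with the smaller boundary count doubled, in place of the sum of both, the control mean was 0.617%. In SPTB the most retained intron, 64784394 to 64785536, stood at 17.9% and 9.27%, 11.7% and 8.16%, and 10.7% and 9.31%, with the knockdown libraries within or just below the controls. In TFRC it stood between 196074126 and 196077063 at 9.43% and 12.2%, 12.7% and 13.7%, and 10.4% and 11.6%, and at 0.523% in the control with the smaller boundary doubled. That interval spans the 202-nt exon of TFRC. Its spliced reads are only those that skip the exon, 168 and 219 in the controls, against 7583 and 8910 counted as including it. These TFRC percentages are thus set against rare skipping reads and not against all splicing in that interval. In the remaining genes the highest mean retention in the control was 18.8% in EPB42, on 5 spliced reads in each control, 6.76% in SLC4A1, 6.10% in EPB41, 2.27% in GYPC and 1.55% in GYPB. With the smaller boundary count doubled it was 0 in EPB42 and SLC4A1, 1.28% in EPB41 and 0.756% in GYPC. The EPB41 interval spans cassette exons of 213 and 105 nt, and the GYPC interval spans one of 57 nt. Their spliced reads likewise leave out reads that include these exons.

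**Figure D4:**
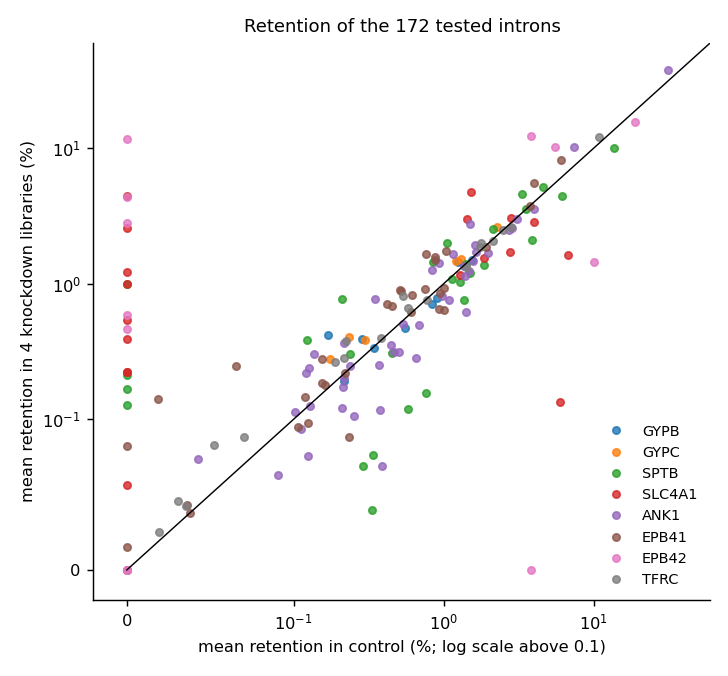
Mean retention of each of the 172 tested introns in the 2 controls (horizontal) and the 4 knockdown libraries (vertical), in percent on axes that are logarithmic above 0.1%, coloured by gene, with the line of equality. The points scatter on both sides of the line, and 108 of 172 lie under 1% in the control.

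Exon choice could be read where the tables list an intron that skips an exon and both introns that flank it. Inclusion is the mean of the flanking spliced reads minus the skipping reads, as a share of that difference plus the skipping reads. The 8 genes held 16 such cassette exons in 6 genes, all tested, 8 of them with a mean inclusion between 5% and 95%. The edgeR test called 0 of the 16 over both shRNAs, under sh1, under sh2 and between them, against 0.0%, 0.0166%, 0.0% and 0.0166% of 6031 exons. At an unadjusted p under 0.05 were 2, 2, 3 and 3 of the 16, against 5.44%, 4.99%, 5.7% and 6.17% of all. Of the 16, 2 in EPB41 and GYPB were included above both controls in all 4 knockdown libraries (background 8.87%).

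The EPB41 exon of 63 nt, at chromosome 1 from 29060422 to 29060484, is the exon of the spectrin and actin binding domain that is known to be switched on as erythroid cells mature. It was included at 8.99% and 7.89% in the controls, 19.3% and 10.2% under sh1 and 24.2% and 11.2% under sh2. Replicate 1 of each shRNA was the highest, replicate 2 of each lay just above the controls, and the Wilson 95% interval of the first control ran from 7.41% to 10.9%. The log2 odds ratio was 1.01 (SE 0.416) over both shRNAs (edgeR adjusted p = 0.886, unadjusted p = 0.0423), and 0.65 (SE 0.322; edgeR unadjusted p = 0.0797) without replicate 1 of sh2. Such intervals cover counting error only, since reads copied by PCR are not independent molecules. The 57-nt exon of EPB41 just upstream followed a like order at lower levels, 4.55% and 4.22% in the controls, 8.15% and 4.48% under sh1 and 9.36% and 4.15% under sh2 (log2 odds ratio 0.56, SE 0.385, and 0.21 without replicate 1 of sh2), but replicate 2 of each shRNA lay at the controls. EPB41 exons of 105 and 102 nt were included at 75.9% to 80.0% and 71.3% to 74.8% in all libraries, with log2 odds ratios of -0.04 (SE 0.139) and 0.06 (SE 0.14).

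The GYPB exon of 99 nt at chromosome 4 from 144001185 to 144001283 was included at 32.4% and 31.5% in the controls, 44.0% and 38.1% under sh1 and 50.2% and 38.8% under sh2. All 4 knockdown libraries lay above both controls, replicate 1 of each shRNA the furthest. The log2 odds ratio was 0.67 (SE 0.193; edgeR adjusted p = 0.886, unadjusted p = 0.00833), and 0.50 (SE 0.141; edgeR unadjusted p = 0.00859) without replicate 1 of sh2. The part of reads from near-identical genes in this inclusion was not tested. GYPC skipped its 57-nt exon, from 126690255 to 126690311, in over 50% of reads: inclusion was 45.99% and 43.6% in the controls, 39.2% and 40.5% under sh1 and 45.5% and 45.4% under sh2. The sh1 libraries were the lowest, and the direct difference of sh1 minus sh2 was -0.33 (SE 0.113; edgeR adjusted p = 0.737, unadjusted p = 0.0194). The 141-nt exon of ANK1 was included at 85.3% and 87.1%, 80.8% and 86.0%, and 86.7% and 92.0%, and the 202-nt exon of TFRC at a mean of 97.7% in the controls and 98.0% in both knockdown groups.

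EPB41 transcripts begin at alternative start exons that splice to the same next exon, and the reads leaving each were compared. The most upstream one, behind the first EPB41 promoter printed above, gave 64.2% and 56.8% of these reads in the controls, 72.8% and 64.3% under sh1 and 81.5% and 69.6% under sh2. All 4 knockdown libraries lay above both controls, and within each experiment number both lay above the control of that number. The downstream start exon, behind the other EPB41 promoter, gave 34.9% and 42.1%, 25% and 35.1%, and 17.0% and 29.8%, and a start exon between them gave about 1%. The upstream share averaged 60.5% ± 5.23 in the 2 controls and 72.1% ± 7.22 in the 4 knockdown libraries, 11.6 percentage points apart (two-sided exact permutation p = 0.133, the smallest that 4 against 2 unpaired libraries allow).

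**Figure D5:**
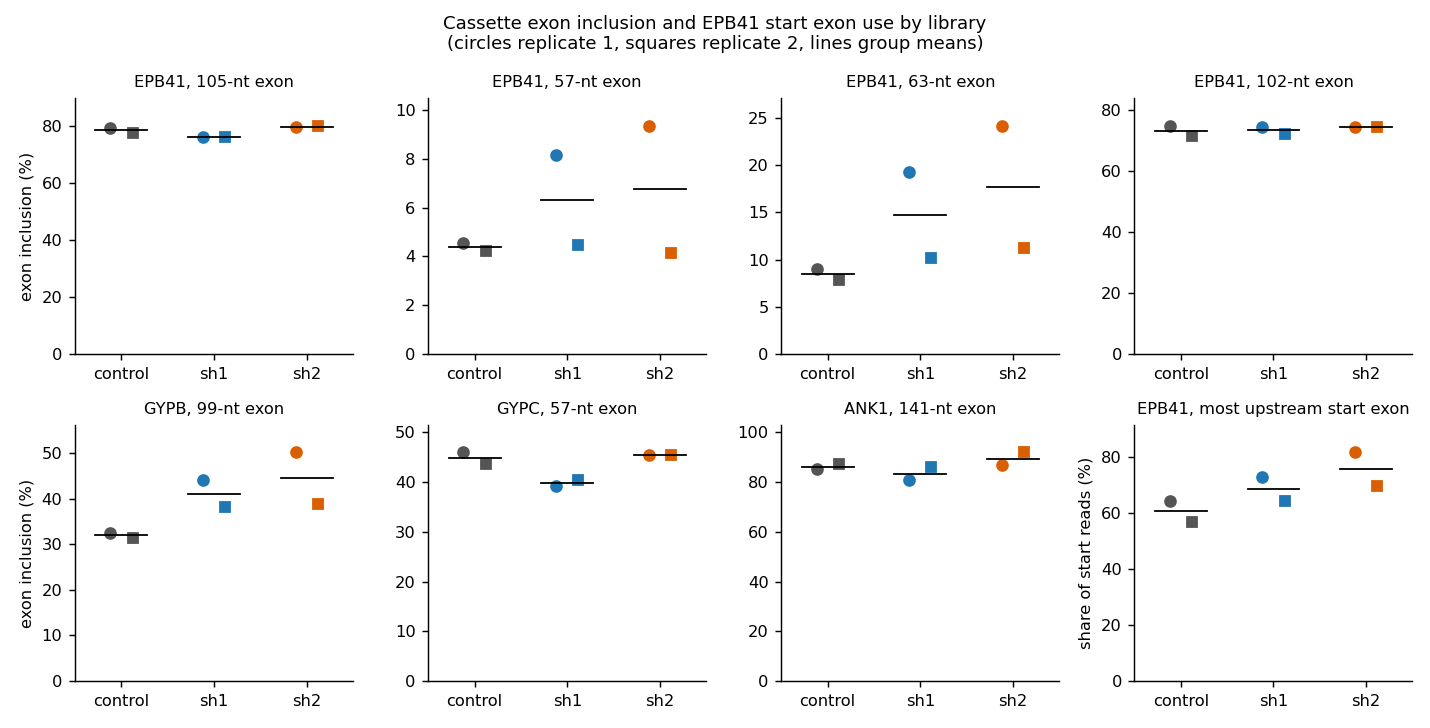
Inclusion in percent of 7 cassette exons of EPB41, GYPB, GYPC and ANK1, and the share of EPB41 start reads that leave the most upstream start exon, in the 6 libraries; circles are replicate 1, squares replicate 2, lines group means, and axes start at 0. The EPB41 63-nt exon goes from 8.99% and 7.89% in the control to 24.2% in replicate 1 of sh2, while its 105-nt exon stays between 75.9% and 80.0%.

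The gene with the most similar profile was sought for each member among 8262 genes with a mean of at least 10 CPM, as Pearson's r of log2 CPM over the 6 libraries. It was OGG1 for GYPB (r = 0.994), NISCH for GYPC (0.992), DCAF6 for SPTB (0.998), MAST3 for SLC4A1 (0.996), IQGAP2 for ANK1 (0.995), EIF3L for EPB41 (0.993), TNFRSF14 for EPB42 (0.995) and MPRIP for TFRC (0.997). With 6 libraries and this many genes values so near 1 are a description of these libraries, which share their groups and depth. For SLC4A1 and EPB42 the likeness rests on replicate 1 of sh2, where TNFRSF14 stood at 30.8 CPM against 5.82 to 8.38 in the other libraries. IQGAP2, the gene nearest to ANK1, stood at 45.6 and 93.2 CPM in the controls, 149 and 134 under sh1 and 180 and 138 under sh2, and DCAF6, the gene nearest to SPTB, at 84.9 and 111, 178 and 149, and 273 and 186 CPM. Both lay above both controls in all 4 knockdown libraries, like ANK1 and SPTB. Since they were picked for likeness over these same libraries, that order is no separate result.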

How the data were processed

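The authors deposited 1 table for each of the 6 libraries of K562 cells, made from polyA-selected RNA with a NEBNext Ultra kit per the labels' protocols. Per the file headers each table holds, for every intron, raw counts of reads at its 2 boundaries and of reads spliced across it. A covered fraction of each intron, also deposited, served as a filter in 1 alternative. The deposited percent (MSI), called retention here, was recomputed from the counts and deviated by at most 2.8e-14. Which aligner and counter the authors ran is not given in the sources used here. For the build, the submitters' processing notes name hg19, but 95.6% of introns lay inside a RefSeq gene on GRCh38, against 62.6% and 62.9% after shifting the positions up or down, so positions are printed as GRCh38, with starts counted from 1. A spliced count holds every gap that spans the intron, on either strand, so antisense reads cannot be told apart.

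Boundary and spliced counts of each library formed a pair, and the group effect on their ratio was tested over 134078 introns with a mean of at least 20 reads. Spliced reads were summed per gene over non-overlapping introns, leaving out 2819 introns whose counts repeated those of a neighbouring gene (0 in the 8 genes), filtered with filterByExpr (17575 genes) and scaled with TMM. Inclusion of 6031 cassette exons was tested as a pair of counts too, an analysis chosen after the counts had been seen. All 6 libraries shared 1 fit in edgeR 4.0.16 (limma 3.58.1, R 4.3.3), the quasi-likelihood test, with Benjamini-Hochberg adjustment over all features at 0.05. DESeq2 1.42.0 was the alternative for genes, its missing adjusted p left missing. Scripts were tested on simulated data. Tables and exact permutation tests used Python 3.11.15 with scipy 1.17.1.

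The 8 genes, the gene lists and the rule for named genes and introns were chosen with earlier results of these data known. Named were all 8 genes, for each the tested intron with the lowest p and that with the highest control retention, the listed genes called by either tool or among the 3 lowest p of their list, and for each of the 8 the most alike other gene. Some results that this rule would name are not reported here. Cassette exons were named where mean inclusion lay between 5% and 95%, others as examples.

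Alternatives were limits of 10 and 50 reads, a covered fraction of at least 0.95, the smaller boundary count doubled, other scaling, no filter, other ways to sum a gene, each shRNA fitted with the control alone, the replicate number as a block, leaving out each library in turn, and, chosen after seeing the data, leaving out the replicate 1 libraries of both shRNAs.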

Additional observations from a re-analysis of the deposited data

Results flagged for a closer look

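GYPC differed between the shRNAs in direction: both sh1 libraries lay below both controls and both sh2 libraries above them. The log2 difference, sh1 minus sh2, was -0.99 (SE 0.252; adjusted p = 0.911 in edgeR and 0.0771 in DESeq2), so the difference was tested and not called. Without replicate 1 of sh2, which leaves 1 sh2 library, it was -0.55 (SE 0.17; edgeR adjusted p = 1).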

How the results depend on the processing

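The count of members called by edgeR was 0 for retention, spliced reads and cassette exons in all 4 contrasts, and it stayed at 0 under all but these alternatives. DESeq2 called 1 gene (SPTB) over both shRNAs and 1 under sh2, or 1 and 0 without replicate 1 of sh2, an alternative chosen after seeing the data, and leaving out single libraries gave counts from 0 to 1 under sh2 and in sh1 against sh2, the 1 being SLC4A1 with replicate 1 as the only sh2 library, whose spread is assumed to be that of the other groups. With the replicate number as a block, 0 genes were called, SPTB was at 1.05 (edgeR adjusted p = 0.278), SLC4A1 under sh1 turned to -0.13 and EPB42 under sh1 to 0.10. The labels tie nothing to that number beyond an experiment, and the differences between replicates correlated at 0.19, 0.18 and 0.29 between the groups across 17575 genes, a hint from the data that does not establish pairs. Without the replicate 1 libraries of both shRNAs, SLC4A1 under sh1 turned to -0.20, EPB41 under sh1 to 0.026 and TFRC under sh2 to 0.030. Leaving out 1 library at a time gave GYPC over both shRNAs from -0.012 to 0.38, SLC4A1 under sh1 from -0.20 to 0.25, EPB41 under sh1 from -0.10 to 0.10, EPB42 under sh1 from -0.50 to 0.71 and TFRC under sh2 from -0.059 to 0.036, the cause not tested. By DESeq2 without replicate 1 of sh2, GYPC over both shRNAs was at -0.016 and TFRC under sh2 at 0.022. For cassette exons, tested in edgeR alone, leaving out 1 library at a time gave log2 odds ratios from -0.13 to 0.27 for the 141-nt exon of ANK1, from -0.10 to 0.022 and from -0.072 to 0.18 for the EPB41 exons of 105 and 102 nt, and from -1.51 to 3.02 for the 234-nt exon of EPB42. With the smaller boundary count doubled, the first TFRC intron turned to -0.23. Of the values for single genes, introns and exons, 517 kept direction and call and 23 changed direction, 6 moved by more than the spread between replicates and 4 passed the test only under the alternative (SPTB by DESeq2 in 3, SLC4A1 in 1). With 2 libraries per group and few reads in SLC4A1 and EPB42, depth and number of libraries limit what these comparisons can show.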
